A study of Gallus gallus with 21 samples.

Results

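The apical dermal papilla of the resting feather follicle was set against the pulp of the late growth follicle, gene by gene. A gene was compared when it reached at least 1 TPM (a measure of transcript abundance per unit of length, scaled to the same total in each library) in at least 2 of the 5 libraries of both groups, which held for 13883 of 23789 genes. The rule used no difference between the groups. The resting group had 3 libraries of apical dermal papilla and the late growth group 2 libraries of pulp, among 21 libraries of the series. Both came from contour feathers of untreated male white leghorn chickens aged 1 year, and bulk total RNA was sequenced. The labels do not define how the apical part was dissected, and they do not state if each replicate is another bird. P-values therefore measure the spread between these libraries, part of which may be technical. Tissue and stage differ together in this comparison, so a difference between papilla and pulp cannot be told apart from one between rest and growth. The other 4 libraries of the same experiment, 2 of near resting pulp and 2 of early growth pulp, entered the model for its estimate of spread and are used below to place the genes among the stages.

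The dermal papilla is the mesenchymal cell cluster at the base of a feather follicle that instructs the overlying epidermis to make a feather, as its counterpart does in a hair follicle. In a growing feather it continues upwards into the pulp, a loose, vascular mesenchyme that fills and nourishes the cylinder of growing feather epithelium and is resorbed as the feather matures. At rest the papilla persists with little pulp and is the tissue from which the next cycle starts. Wnt, BMP, FGF and activin signals between epidermis and mesenchyme are known to control this cycle.

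Most measured genes differed. Of the 13883 genes, 8635 (62.2%) were called at an adjusted p under 0.05 by limma, 4848 (34.9%) higher in the resting papilla and 3787 (27.3%) lower. At least 2-fold differences were called in 2256 genes (16.3%) that were higher and 1988 (14.3%) that were lower, at least 4-fold ones in 611 (4.4%) and 723 (5.21%), and at least 16-fold ones in 78 (0.562%) and 150 (1.08%). The median log2 fold change over all genes was 0.13, with the papilla over the pulp, and 67.9% of genes lay within 2-fold. Libraries of the 2 groups did not overlap for 11305 genes (81.4%), a share against which every list below has to be read, as are the shares of 34.9% higher and 27.3% lower. Scaling the libraries by median of ratios moved the median of all genes by -0.10 on the log2 scale and gave 4374 calls up and 4355 down, so small differences in either direction depend on the scaling. Means below are given with their SD over 3 papilla and 2 pulp libraries. Fold changes were computed as log2(TPM + 1), so those of weak transcripts are understated. Because TPM keeps no depth, the sequencing depth is unknown and a value of exactly 0 is given only as listed at 0. A permutation of 3 against 2 libraries cannot give an exact two-sided p below 0.1, so single genes were tested only within the fit over all genes. That fit takes its spread from all 9 libraries. Some genes not called in it were called in a fit on the 5 compared libraries alone, so not called does not mean equal.

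**Figure D1:**
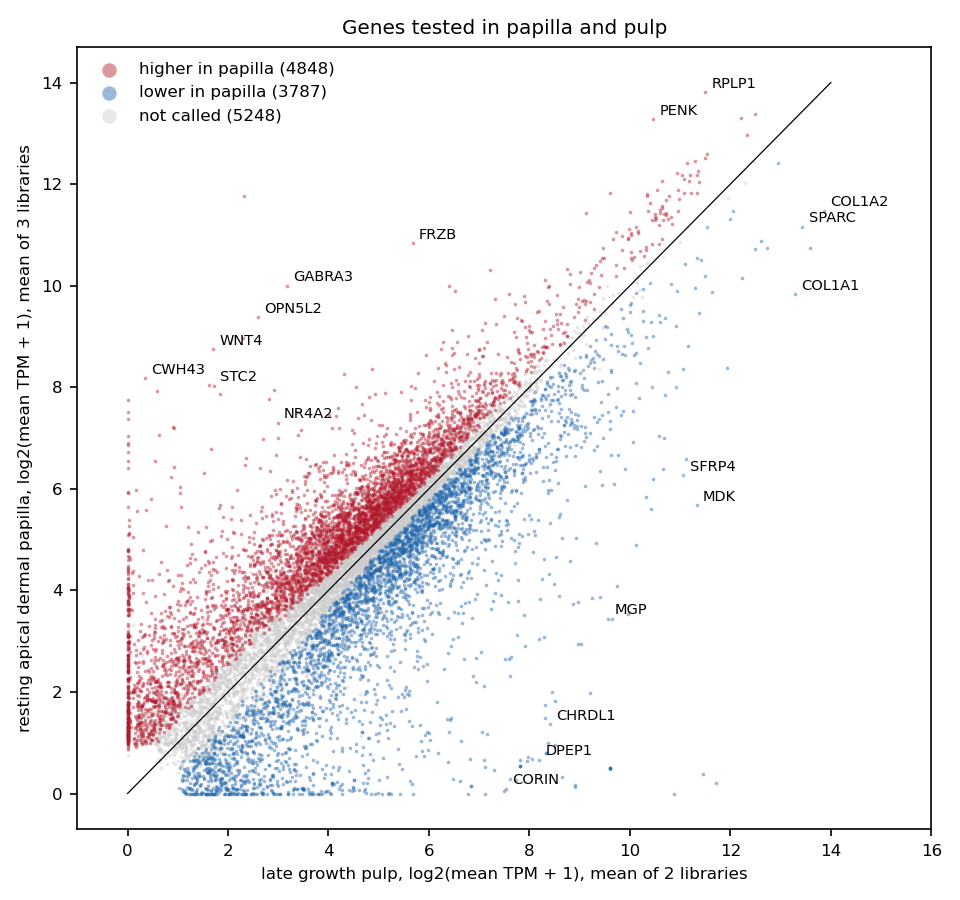
Mean expression of each compared gene on a log2(mean TPM + 1) scale, in the resting apical dermal papilla (vertical axis, 3 libraries) and in late growth pulp (horizontal axis, 2 libraries), each point a gene. Points above the line, 4848 of them in red, were called higher in the papilla, and 3787 in blue were called lower, while the collagens COL1A1 and COL1A2 and SPARC lie at the far right.

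Replicates were close: the SD of the log2 difference between papilla libraries was 0.32 to 0.371, and between the pulp libraries 0.443. It was 0.414 between the early growth pulp libraries and 0.62 between the near resting ones, which also entered the estimate of spread. In bulk tissue, fewer cells of a type and less RNA per cell cannot be told apart, and this holds for every cell type named below.

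The labelled tissues were checked against markers. Mesenchymal genes were abundant in both: PRRX1, a homeobox factor of limb and skin mesenchyme, averaged 1522 against 1606 TPM in papilla and pulp, and PDGFRA, a receptor of fibroblasts, averaged 246 against 419 TPM. ALX4, a homeobox factor of papilla mesenchyme, was at 65.5, 71.9 and 73.8 TPM in the papilla libraries, against 36.9 and 46.3 TPM in the pulp libraries, and passed the test (log2 fold change 0.75). TBX18 and NOG, other papilla markers, averaged 10.5 against 7.8 TPM and 12.5 against 8.61 TPM and were called higher. The call of NOG was lost when any 1 of the 5 libraries was left out (adjusted p 0.0598 to 0.228), and that of TBX18 without papilla replicate 2 or 3 or either pulp library (0.0584 to 0.0869). CORIN, a serine protease that marks the mouse hair papilla, and CHRDL1 were nearly absent in the resting papilla, at 0.0689 and 1.58 TPM on average, and were abundant in late growth pulp, at 184 and 340.1 TPM. ALX4, TBX18 and NOG were thus present in the resting papilla, while CORIN and CHRDL1 were nearly absent from it. Whether their near absence comes from the stage, the part dissected or the label was not tested. CORIN also averaged 223 TPM in early growth pulp, so it was not confined to papilla in these data. Pulp markers were low in the papilla. ASIP, CXCL14 and CYTL1 averaged 4.62, 333 and 83 TPM in papilla, against 51.1, 3914 and 1621 TPM in late growth pulp, and DRAXIN was lower too. CXCL14 and CYTL1 were also higher in early growth pulp (1643 and 4245 TPM) and near resting pulp (3562 and 1917 TPM). The pulp markers were chosen with earlier results of these data known, so their low levels are no independent check of the label. ASIP averaged 5216 TPM in early growth and 11.9 TPM in near resting pulp, so its low level does not set papilla apart from pulp. Groups are called by their labels throughout, so each direction below is that of the libraries labelled papilla over those labelled pulp. Of 27 tested genes in a list of papilla markers, 13 were higher and 9 lower in the resting papilla (48.1% and 33.3%, against 34.9% and 27.3% over all genes).

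EDN3, which encodes the peptide endothelin 3, showed the largest increase in that list. It was at 242, 192 and 219.7 TPM in the papilla libraries, against 5.99 and 6.11 TPM in the pulp libraries (log2 fold change 4.95 ± 0.14 SE, limma adjusted p = 1.7e-07), and the groups did not overlap. RSPO2, a secreted enhancer of Wnt signalling, averaged 11.2 against 1.74 TPM, WIF1, a secreted Wnt inhibitor, 619 against 137 TPM, and TRPS1, a GATA-type repressor, 169 against 48.5 TPM, each papilla against pulp and each called higher. The members that were lower included ENPP2, the enzyme that makes lysophosphatidic acid (12.8 against 218 TPM), ALPL, tissue non-specific alkaline phosphatase (70.4 against 306 TPM), and the proteoglycan VCAN (256 against 1920.4 TPM). Alkaline phosphatase and versican are widely used as papilla markers in mouse hair follicles.

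The genes described first are the 15 that rose most in the resting papilla among called genes with a gene symbol. These, and the 15 that fell most, had to average at least 10 TPM in the higher group and not to overlap between the groups. CWH43, a membrane protein of GPI anchor remodelling, was at 306, 276 and 289.9 TPM in the papilla libraries, against 0.13 and 0.416 TPM in the pulp libraries (log2 fold change 7.85 ± 0.14 SE, limma adjusted p = 3.7e-08). WNT4, a secreted Wnt ligand, was at 396, 484 and 416 TPM in papilla and 2.32 and 2.17 TPM in pulp (log2 fold change 7.05 ± 0.21 SE, limma adjusted p = 2.1e-07). Both genes were high in every papilla library and near the bottom of the measured range in both pulp libraries. A pair of subunits of the GABA-A receptor, a chloride channel gated by the transmitter GABA, rose together. GABRA3 was at 1056, 1010.0 and 1007 TPM in the papilla libraries, against 5.98 and 10.2 TPM in pulp (log2 fold change 6.86 ± 0.17 SE), and GABRQ averaged 85.7 ± 1.86 TPM in papilla, against 0.902 ± 0.0254 TPM in pulp (SD, n = 3 and 2). The subunits thus shared direction, and GABRA3 was the more abundant per transcript length.

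OPN5L2, an opsin of the OPN5 family, was at 704, 625 and 674 TPM in the papilla, against 4.1 and 5.96 TPM in pulp (log2 fold change 6.81 ± 0.31 SE, limma adjusted p = 1.3e-06). ALDH1A2, the enzyme that makes retinoic acid from retinaldehyde, was at 308, 217 and 266 TPM in papilla, against 2.27 and 1.91 TPM in pulp (log2 fold change 6.41 ± 0.19 SE). FSTL3, a secreted binder of activin, averaged 149 ± 6.48 TPM in the papilla and 0.874 ± 0.131 TPM in pulp. None of these overlapped between the groups, which their choice required. PTGER4, the EP4 receptor for prostaglandin E2, was at 225, 245 and 229 TPM in papilla libraries, against 1.15 and 4.04 TPM in the pulp libraries, and STC2, the secreted glycoprotein stanniocalcin 2, was at 290.5, 225 and 267 TPM, against 1.96 and 2.63 TPM. JCHAIN, which joins immunoglobulin chains in polymers, averaged 503 ± 36.6 TPM in papilla and 3.93 ± 0.566 TPM in pulp. Others among the 15 were SLC22A16, a carnitine transporter, CYP1C1, a cytochrome P450, NPTX2, a neuronal pentraxin, and DOCK3, an activator of the GTPase RAC, with mean levels of 46.1 to 146 TPM in the papilla and 0.136 to 0.892 TPM in pulp. Their log2 fold changes lay between 5.37 for DOCK3 and 6.42 for SLC22A16.

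**Figure D2:**
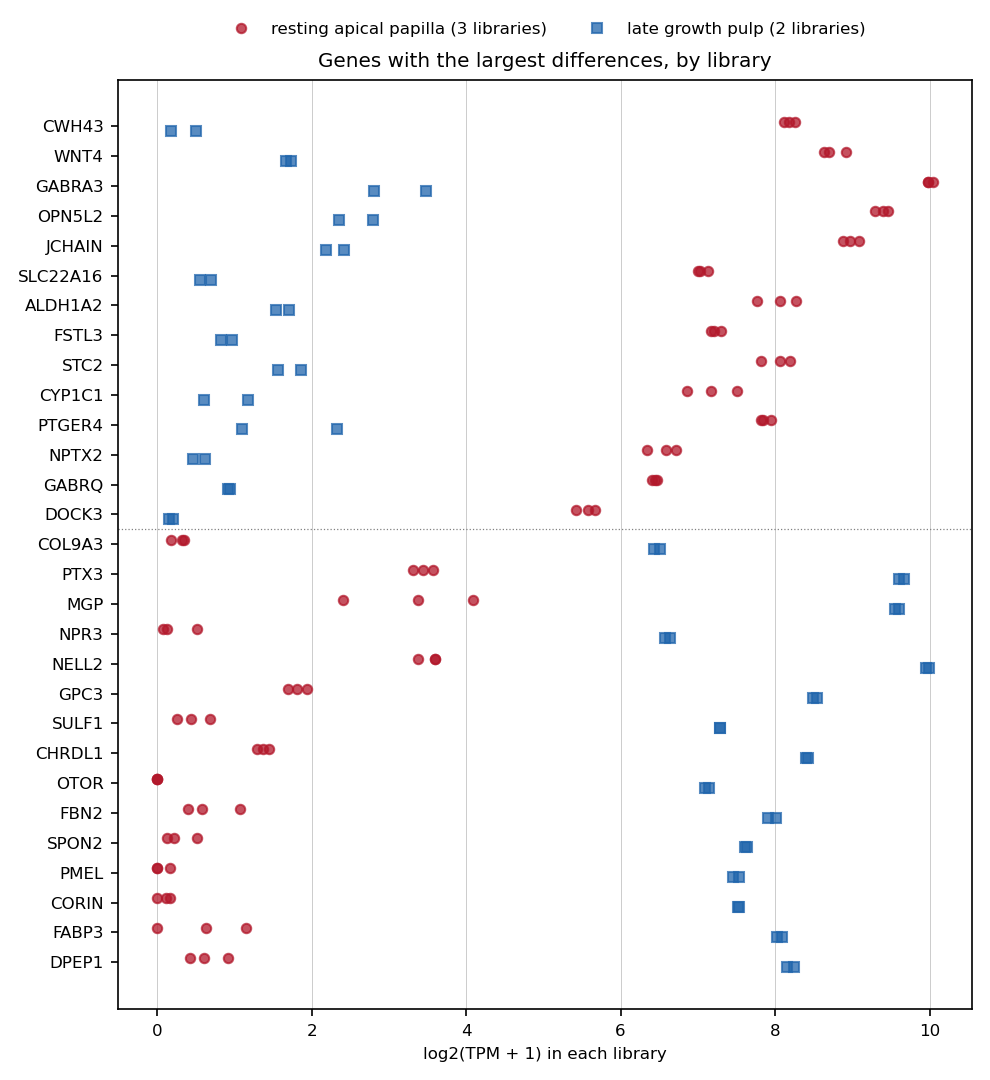
Level of 14 of the 15 genes with the largest increases (upper block) and the 15 with the largest decreases (lower block) among genes with a symbol, in each library, on a log2(TPM + 1) axis, with the 3 resting papilla libraries as red circles above the 2 late growth pulp libraries as blue squares. The genes were chosen to have no overlap between the groups, and MGP shows the widest spread among the papilla libraries.

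Several of the 15 genes with a symbol that fell most were under 1 TPM on average in the resting papilla. FABP3, a fatty acid binding protein, was at 0.555, 1.22 and 0 TPM in the papilla libraries, against 272 and 259.8 TPM in the pulp libraries (log2 fold change -7.46 ± 0.43 SE, limma adjusted p = 4.3e-06). DPEP1, a membrane dipeptidase, was at 0.349, 0.526 and 0.894 TPM in papilla, against 302 and 284 TPM in pulp (log2 fold change -7.54 ± 0.16 SE). FBN2, a fibrillin of elastic microfibrils, was at 1.1, 0.491 and 0.32 TPM in the papilla, against 239.5 and 257 TPM in the pulp. In each case both pulp libraries were high and all papilla libraries low, and a lack of overlap was required by the choice. CHRDL1, a secreted BMP antagonist, averaged 1.58 ± 0.141 TPM in papilla and 340.1 ± 3.51 TPM in pulp, and SULF1, an extracellular enzyme that removes sulphate from heparan sulphate, 0.386 ± 0.205 TPM and 156 ± 0.0205 TPM. MGP, a matrix inhibitor of calcification, was the most variable of the group, at 4.28, 16 and 9.4 TPM in the papilla libraries, against 747 and 775 TPM in the pulp libraries. The highest papilla library of MGP was still far under both pulp libraries.

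GPC3, a glypican that binds growth factors, averaged 2.53 ± 0.299 TPM in the papilla and 365 ± 10.1 TPM in pulp, and NPR3, the clearance receptor of natriuretic peptides, 0.191 ± 0.208 TPM and 96.8 ± 3.11 TPM. NELL2, a secreted glycoprotein, was at 11.1, 9.37 and 11.1 TPM in the papilla libraries, against 987 and 1019 TPM in pulp, and PTX3, a soluble pattern recognition protein, averaged 9.9 against 797 TPM, papilla against pulp. CORIN, SPON2, a secreted matrix protein, and PMEL, the fibril protein of melanosomes, averaged 0.0689, 0.226 and 0.0412 TPM in papilla and 184, 196 and 179 TPM in pulp. COL9A3, a cartilage-type collagen, averaged 0.22 against 87.7 TPM. OTOR, a secreted protein of cartilage and the inner ear, was listed at 0 in all papilla libraries and was at 140.3 and 135 TPM in pulp, so no fold is given.

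Some genes were listed at 0 in one tissue only. In total 40 genes were listed at 0 in both pulp libraries and reached 10 TPM in all papilla libraries, and 20 showed the reverse. Those with a symbol among the first included the growth factor FGF16 (26.6, 29.7 and 24.8 TPM in the papilla libraries), the neuropeptide precursor PNOC (27.8, 25.2 and 26.4 TPM), STMN2, a microtubule regulator of neurons (36.2, 15.9 and 27.6 TPM), and the ligand WNT2 (14.1, 14.6 and 14.6 TPM). Among those listed at 0 in all papilla libraries were PSCA, a GPI-anchored surface protein (36.4 and 37 TPM in the pulp libraries), the cartilage collagen COL2A1 (26.6 and 28.9 TPM), and the melanosome protein MLANA (12.1 and 11.3 TPM).

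The most abundant transcripts also differed. In the papilla the 10 genes with a symbol of highest mean TPM were RPLP1, EEF1A1, RPS6, PENK, RPS10, RPS20, RPS25, UBB, RPL34 and FTH1, of which 6 encode ribosomal proteins. Among genes with a symbol, the pulp was led by COL1A2, SPARC, COL1A1, FTH1, FSTL1, TMSB4X, EEF1A1, UBB, VIM and COL3A1, with 3 collagen genes. RPLP1, a protein of the ribosomal stalk, was at 15295, 13073 and 14662 TPM in the papilla libraries, against 2939.8 and 2829.8 TPM in the pulp libraries (log2 fold change 2.31 ± 0.10 SE, limma adjusted p = 1.0e-06). PENK, the precursor of the enkephalin opioid peptides, was at 10702, 8976 and 10227 TPM in papilla, against 1416 and 1401 TPM in pulp (log2 fold change 2.82 ± 0.40 SE, limma adjusted p = 4.7e-04). The groups were far apart for both. COL1A2, a chain of type I collagen, was at 2882, 2811 and 2859 TPM in the papilla, against 14942 and 14958 TPM in the pulp (log2 fold change -2.39).

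Ribosomal protein genes rose almost without exception: 61 of 64 were higher and 1 was lower, with a median log2 fold change of 0.89 beside 0.13 over all genes. Their summed level was 177130 to 181570 TPM in the papilla libraries and 89254 to 89769 TPM in the pulp libraries. RPS6, a protein of the small subunit, averaged 10089 against 4722 TPM, RPL37A 1284 against 429 TPM and RPL14 2816 against 1025 TPM, papilla against pulp. RPL22L1, a paralogue of RPL22, was the member that fell (247 against 447 TPM). The count was 57 higher and 1 lower with quantile normalization, and 59 and 2 with median-of-ratios scaling. Members with close copies elsewhere in the genome can share reads, so single values are uncertain.

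Most genes of the extracellular matrix fell in the resting papilla in nearly every class. Of 19 tested interstitial collagen genes, 16 were lower and 1 was higher, with a median log2 fold change of -2.04, and their summed level was 7548.9 to 8235.9 TPM in the papilla libraries and 39580 to 40776 TPM in the pulp libraries. COL1A1, the other chain of type I collagen, was at 863, 943 and 917 TPM in papilla libraries, against 10418 and 9548 TPM in pulp libraries (log2 fold change -3.46 ± 0.14 SE, limma adjusted p = 7.2e-07). COL8A1, a network-forming collagen, averaged 56.4 ± 5.81 TPM in the papilla and 1271 ± 18.3 TPM in pulp, and COL5A1, which starts collagen fibrils, 130.0 ± 2.26 TPM and 1530.3 ± 33.4 TPM. COL20A1 was the one that rose (6.28 against 1.48 TPM), and COL17A1, the hemidesmosome collagen of keratinocytes, was not called (48.8 against 22 TPM).

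The enzymes that modify and cross-link collagen followed, with 16 of 22 lower. SERPINH1, the collagen chaperone HSP47, averaged 934 against 3195 TPM, LOXL3, a lysyl oxidase, 27.8 against 219 TPM and PLOD2, a lysyl hydroxylase, 31.3 against 143 TPM, papilla against pulp. P3H2, a prolyl hydroxylase of basement membrane collagen, rose to 78.8, 82.9 and 85.4 TPM in the papilla libraries, against 18.1 and 19.3 TPM in pulp. All 10 tested elastic fibre genes fell, with a median of -2.42. FBN1, the main fibrillin, averaged 254 against 1393 TPM and FBN3 13.6 against 681 TPM. Among matricellular genes 16 of 21 were lower: SPARC, a collagen-binding protein, was at 2333, 2246 and 2298 TPM in papilla and 10837 and 11314 TPM in pulp, and FN1, fibronectin, averaged 219 against 1158 TPM. TNC, tenascin C (223 against 98.5 TPM), and the matrilins MATN2 (8.93 against 0.464 TPM) and MATN4 (5.65 against 0.12 TPM) were the members that rose.

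Of 10 small proteoglycan genes 6 were lower and 3 higher, with a median log2 fold change of -1.77. Their summed level did not fall, at 4467.2 to 5704.5 TPM in the papilla libraries and 4936.2 to 5061 TPM in the pulp libraries. PRELP, OGN and ASPN fell to 272, 161 and 14.2 TPM in the papilla, against 1107, 773 and 123 TPM in pulp. LUM, lumican, rose and was at 1929, 1474 and 1707 TPM in the papilla libraries, against 695 and 714 TPM in the pulp libraries (log2 fold change 1.26 ± 0.15 SE, limma adjusted p = 1.9e-04), and DCN, decorin, at 3185, 2495 and 2882 TPM, against 1966 and 2004 TPM (log2 fold change 0.52, adjusted p = 0.0043). The call of DCN was lost with quantile normalization (0.18, adjusted p = 0.206). Both regulate collagen fibril width, and for both all papilla libraries lay above the pulp libraries. Of 16 basement membrane genes 11 were lower and 2 higher, or 1 higher without pulp replicate 1: COL4A1 averaged 113 against 446 TPM, while LAMA3, a laminin chain of epithelial basement membranes, averaged 313 against 80.3 TPM.

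Matrix proteases and their inhibitors were mostly lower, in 24 of 37 genes. MMP2, gelatinase A, averaged 705 ± 121 TPM in papilla and 2665 ± 7.86 TPM in pulp. MMP9, gelatinase B, was at 3.62, 7.96 and 4.38 TPM in the papilla libraries, against 119 and 124 TPM in pulp, and ADAM12, a metalloprotease of mesenchyme, averaged 1.75 against 80.8 TPM. Those that rose were led by HTRA1, a secreted serine protease (1026 against 336 TPM), and ADAMTS19 (69.3 against 14.1 TPM). Lysosomal genes fell in 23 of 29, with a median of -1.34. CTSB, cathepsin B, averaged 229 against 1655 TPM, PSAP, the saposin precursor, 437 against 1307 TPM and LGMN, legumain, 134 against 435 TPM. SCARB2, a receptor of the lysosomal membrane, was the one called higher (173 against 136 TPM), a call lost when any 1 of the 5 libraries was left out (adjusted p 0.0571 to 0.165).

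Chaperones of the secretory pathway were mostly lower. Of 25 endoplasmic reticulum genes 19 fell, with a median of -0.50. HSPA5, the chaperone BiP, was at 390.2, 422 and 405 TPM in the papilla libraries, against 1104 and 1115 TPM in the pulp libraries (log2 fold change -1.45 ± 0.21 SE), and CALR, calreticulin, averaged 989 against 2530.0 TPM. CHAC1, a glutathione-degrading enzyme induced by ATF4, rose (31.2 against 5.4 TPM), as did ATF4 itself (819 against 589 TPM). The call of CHAC1 was lost without pulp replicate 2 (adjusted p = 0.0553), and that of ATF4 without papilla replicate 2 or either pulp library (adjusted p 0.0528 to 0.105). In the heat shock list 10 of 22 fell and 5 rose (45.5% and 22.7%, against 27.3% and 34.9% over all genes). HSPA8 averaged 326 against 2134 TPM and the co-chaperone BAG3 80.7 against 674 TPM, both lower, while the small heat shock protein CRYAB averaged 19.7 against 1.68 TPM. With either pulp library left out, 3 heat shock genes were called higher.

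Wnt pathway genes were called in both directions. Of 9 tested ligands 4 were higher (WNT4, WNT2, WNT9A and WNT5A) and 4 lower (WNT5B, WNT2B, WNT11 and WNT10A). The call of WNT10A, a weak transcript, was lost without papilla replicate 1 (adjusted p = 0.0598) and without pulp replicate 2 (0.109). WNT5A, a ligand of the non-canonical branch, was at 408, 396 and 406 TPM in papilla, against 257 and 260.0 TPM in pulp (log2 fold change 0.64 ± 0.09 SE, limma adjusted p = 3.3e-04). WNT5B, its close relative, was at 1.42, 1.81 and 2.18 TPM in the papilla, against 83 and 87.4 TPM in pulp (log2 fold change -4.95 ± 0.41 SE, limma adjusted p = 2.6e-05). WNT11 averaged 177 ± 10.2 TPM in the papilla and 480.3 ± 0.255 TPM in pulp. The paralogues WNT5A and WNT5B thus had opposite directions, and neither overlapped between tissues.

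Secreted Wnt antagonists also differed in both directions. FRZB, a secreted frizzled-related protein, was at 1875, 1782 and 1845 TPM in the papilla libraries, against 50.4 and 50.04 TPM in the pulp libraries (log2 fold change 5.16 ± 0.11 SE, limma adjusted p = 4.5e-08). SFRP4, of the same family, was at 68.7, 83.7 and 76.2 TPM in the papilla, against 2153 and 2124 TPM in pulp (log2 fold change -4.80 ± 0.11 SE, limma adjusted p = 5.3e-08). Papilla libraries were thus high in FRZB and low in SFRP4, and pulp libraries the reverse. DKK1, which binds the co-receptor LRP6, averaged 17.4 ± 0.51 TPM in papilla and 0.399 ± 0.564 TPM in pulp, and its co-receptor KREMEN1 87.6 ± 9.42 TPM and 4.08 ± 1.33 TPM. NOTUM, a hydrolase that inactivates Wnt proteins, averaged 94.4 against 268 TPM and DRAXIN 19.7 against 111 TPM. APCDD1 was not called (342 against 391 TPM).

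Among receptors and enhancers, 7 of 19 were higher and 5 lower (36.8% and 26.3%), close to the shares over all genes (34.9% and 27.3%), and 4 were higher without papilla replicate 1 or 2 or with either pulp library left out. The R-spondins, which stabilise Wnt receptors, were divided: RSPO2 rose, and RSPO4 fell to 1.13, 1.25 and 1.59 TPM in the papilla, against 139 and 124 TPM in pulp. RSPO3 averaged 0.167 against 17.1 TPM and RSPO1 60.5 against 198 TPM. ROR1, a receptor of WNT5A, averaged 71.2 against 23.7 TPM. Of 11 target genes 4 were higher and 3 lower (36.4% and 27.3%), again close to those shares, or 1 lower without papilla replicate 1 or pulp replicate 2. SP5, a direct target of beta-catenin in vertebrates, was at 99.2, 100.1 and 102 TPM in papilla libraries, against 7.14 and 6.32 TPM in the pulp libraries (log2 fold change 3.71 ± 0.12 SE, limma adjusted p = 2.3e-07), and AXIN2, a feedback inhibitor, at 91.1, 106 and 98.7 TPM, against 45.4 and 40.7 TPM (log2 fold change 1.18, adjusted p = 1.6e-05). For both genes every papilla library was above both pulp libraries. CCND1, cyclin D1, was not called (29.2 against 23.7 TPM), and TNFRSF19 fell (34.9 against 173 TPM).

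**Figure D3:**
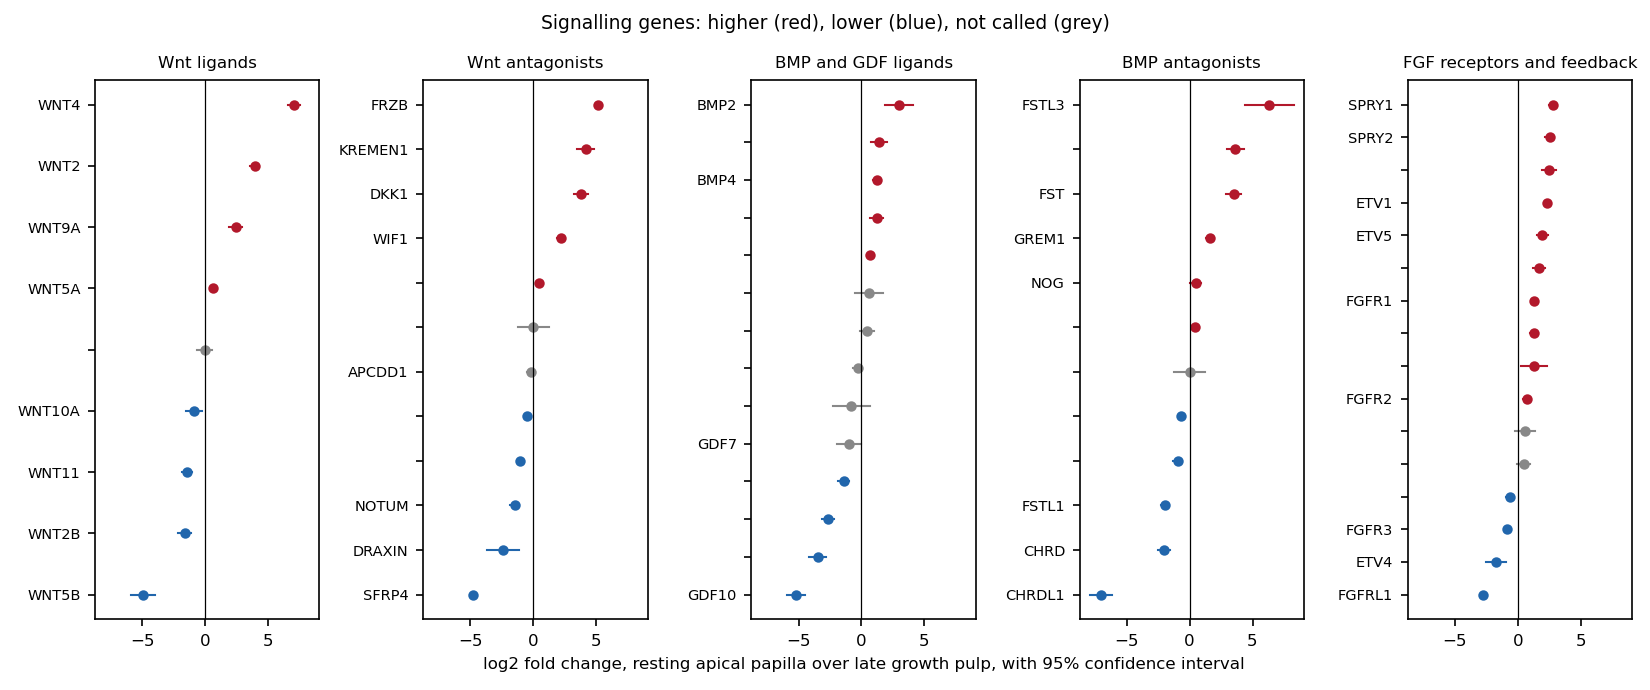
Log2 fold change of the resting papilla over late growth pulp, with its 95% confidence interval, for the tested members of 5 signalling lists, each row a gene, with names for those described in the text. Red members were called higher, blue lower and grey not called, and each of the first 4 panels holds members far to both sides.

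BMP ligands were called in either direction at about the shares over all genes. BMP4 was at 946, 1149.8 and 1036 TPM in the papilla libraries, against 445 and 449 TPM in the pulp libraries (log2 fold change 1.22 ± 0.15 SE, limma adjusted p = 1.8e-04), and BMP2 averaged 22.7 ± 2.53 TPM in papilla and 2.02 ± 0.0926 TPM in pulp. GDF10 fell to 0.967, 0.984 and 1.99 TPM in papilla, against 82.4 and 85.5 TPM in pulp. GDF7, although less abundant on average in the papilla (329 against 667 TPM), was not called in the fit over 9 libraries. In the fit on the 5 compared libraries GDF7 was called lower (limma adjusted p = 1.9e-05). In all 5 of 14 ligands were higher and 4 lower (35.7% and 28.6%, against 34.9% and 27.3% over all genes). Of 12 antagonists 6 were higher and 5 lower (50% and 41.7%, against the same shares over all genes). GREM1, gremlin 1, averaged 49.9 against 15.5 TPM, papilla against pulp, and rose. FST, follistatin, which binds activin and some BMPs, was at 97.7, 59.8 and 82.8 TPM in the papilla libraries, against 7.18 and 5.05 TPM in pulp (log2 fold change 3.50 ± 0.27 SE, limma adjusted p = 1.7e-05). CHRD, chordin, averaged 22.1 against 91.9 TPM and FSTL1 1707 against 6744 TPM, and both fell with CHRDL1.

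Receptors and targets of BMP signalling were lower in 8 of 16 genes and higher in 3 (50% and 18.8%, against 27.3% and 34.9% over all genes). MSX1, a homeobox target of BMP, was at 4.2, 3.51 and 4.12 TPM in papilla, against 211 and 182 TPM in pulp (log2 fold change -5.32 ± 0.32 SE, limma adjusted p = 5.4e-06), and MSX2 averaged 7.82 against 48.2 TPM. BAMBI, a decoy receptor induced by BMP, averaged 83 ± 1.99 TPM in papilla and 962 ± 5.49 TPM in pulp, and ID1 50 against 95.6 TPM. ID2 was slightly higher (335 against 271 TPM), a call lost without papilla replicate 2 or 3 or either pulp library (adjusted p 0.0803 to 0.127), and ID3 was not called (215 against 228 TPM). MSX1, MSX2, BAMBI and ID1 were thus lower where BMP4 was higher, but 3 members of this list were higher and 4 BMP and GDF ligands lower. The activity of the pathway was not tested. In the list of TGF-beta and activin genes, INHBA, the activin A subunit, fell to 90.5, 138 and 93.9 TPM in papilla libraries, against 609.7 and 634 TPM in the pulp libraries. LTBP1, which holds latent TGF-beta in the matrix, averaged 175 against 909.6 TPM. TGFBR1, the type I receptor of TGF-beta, averaged 222 against 84.4 TPM and the co-receptor TGFBR3 39.4 against 12.9 TPM, and both rose.

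FGF receptors and feedback genes were mostly higher: 10 of 16 were higher and 4 lower, with a median log2 fold change of 1.29. SPRY1, a feedback inhibitor of FGF signalling, was at 245, 227 and 232 TPM in the papilla libraries, against 37 and 30.4 TPM in pulp (log2 fold change 2.77 ± 0.12 SE, limma adjusted p = 1.0e-06). SPRY2 averaged 80.5 against 13 TPM, and the ETS factors ETV1 and ETV5, which FGF induces, 74 against 14 TPM and 37.3 against 8.86 TPM. FGFR1 and FGFR2 rose (86.4 against 33.9 and 230.0 against 140.3 TPM), while FGFR3 fell (101 against 179 TPM) together with ETV4 (3.4 against 13.5 TPM) and FGFRL1, a receptor without a kinase domain (4.59 against 36.4 TPM). Of 6 ligands 3 were higher and 1 lower, or 0 lower without papilla replicate 1 or with either pulp library left out. FGF2 averaged 4.25 against 0.342 TPM and rose, as did FGF16, described above, and FGF7 was not called (92.1 against 124 TPM).

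Other signalling lists were mixed or lower. In the hedgehog pathway 5 of 17 genes were higher and 6 lower (29.4% and 35.3%, against 34.9% and 27.3% over all genes). GLI3, the transcription factor that acts mainly as a repressor, averaged 35 ± 1.57 TPM in the papilla and 2.7 ± 0.0105 TPM in pulp, while PTCH1, receptor and target of the pathway, was not called (21.9 against 19.2 TPM). Notch genes were higher in 2 of 16, or in 1 without pulp replicate 2, and lower in 6: NOTCH2 averaged 167 against 87.3 TPM, and LFNG, a glycosyltransferase that modifies Notch, 85.1 against 324 TPM. The main counts of Notch genes were 12.5% higher and 37.5% lower. Of 14 insulin-like growth factor genes 7 were higher and 5 lower (50% and 35.7%, against the same shares over all genes). IGF2 was at 38.2, 41 and 42.8 TPM in the papilla, against 294 and 278 TPM in the pulp (log2 fold change -2.78 ± 0.11 SE, limma adjusted p = 7.8e-07), and IGFBP5, a binding protein, averaged 16.9 against 101 TPM, whereas the receptor IGF1R averaged 56.1 against 31.9 TPM and rose.

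Growth factors of the PDGF, HGF, VEGF and midkine families were lower in 11 of 18 genes. MDK, the heparin-binding cytokine midkine, was at 48.6, 50.9 and 51.6 TPM in the papilla libraries, against 2573 and 2575 TPM in the pulp libraries (log2 fold change -5.65 ± 0.11 SE, limma adjusted p = 4.4e-08), and its relative PTN, pleiotrophin, averaged 42.4 ± 2.73 TPM in papilla and 384 ± 2.85 TPM in pulp. VEGFA, which drives vessel growth, went the other way, at 85.3, 92.6 and 83.1 TPM in papilla, against 29.3 and 30.0 TPM in pulp. Retinoid genes fell in 9 of 17 and rose in 3 (52.9% and 17.6%, against 27.3% and 34.9% over all genes). Besides ALDH1A2, described above, RXRA, a retinoid receptor, rose (80.8 against 50.5 TPM). CYP26B1, which degrades retinoic acid, fell (123 against 263 TPM), as did CRABP-I, a cytosolic retinoic acid binding protein (5.47 against 197 TPM).

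Peptide genes and genes of nerve guidance included several large differences. Of 17 peptide and peptide receptor genes 7 were higher and 4 lower (41.2% and 23.5%, against 34.9% and 27.3% over all genes). NPY, neuropeptide Y, averaged 93.2 ± 2.23 TPM in papilla and 25.8 ± 7.29 TPM in pulp and rose. Of 47 axon guidance genes 13 were higher and 18 lower (27.7% and 38.3%, against 34.9% and 27.3% over all genes). The balance became 19 and 18 when only the 5 libraries were fitted. SEMA3C, a secreted semaphorin, was at 105, 85.4 and 98.8 TPM in the papilla libraries, against 3.05 and 5.19 TPM in pulp (log2 fold change 4.28 ± 0.39 SE, limma adjusted p = 4.2e-05), while SEMA3A averaged 1.71 against 14.4 TPM. UNC5C, a netrin receptor, averaged 42.7 against 2.75 TPM. ISLR2, a membrane protein of axons, averaged 0.665 against 52.9 TPM, and the semaphorin co-receptors NRP1 and NRP2 43.2 against 99.8 and 35.6 against 186 TPM, all lower in the papilla.

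Transcription factors that pattern mesenchyme were higher in 26 of 50 and lower in 13 (52% and 26%, against 34.9% and 27.3% over all genes). The share lower was thus close to that over all genes. TWIST1, a basic helix-loop-helix factor of dermal mesenchyme, was at 597, 699 and 635 TPM in papilla, against 225 and 227 TPM in pulp (limma adjusted p = 1.5e-04), with no overlap. Its relative TWIST2 averaged 279 against 112 TPM, and ZEB1 and ZEB2, repressors of the epithelial state, 85.3 against 33 and 542 against 264 TPM. HOX genes, which record position along the body, were higher in 8 of 26 and lower in 5 (30.8% and 19.2%, against 34.9% and 27.3% over all genes). The increases were led by HOXA3 (57.3 against 7.93 TPM) and HOXA2 (50.1 against 9.72 TPM), the decreases by HOXB8 (7.83 against 44.4 TPM) and HOXB9 (17.3 against 51.3 TPM). With either pulp library left out 3 HOX genes were called lower. The labels do not say whether all libraries came from the same body region.

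Immediate early genes, which respond within minutes to growth factors, stress and tissue handling, were higher in 15 of 28 and lower in 5. These are 53.6% and 17.9%, against 34.9% and 27.3% over all genes. FOS was at 3057, 4286 and 3599.8 TPM in papilla libraries, against 809 and 754 TPM in pulp libraries (log2 fold change 2.21 ± 0.17 SE, limma adjusted p = 1.8e-05). NR4A2, an orphan nuclear receptor, was at 141, 174 and 156 TPM in the papilla, against 9.02 and 4.86 TPM in pulp, and DUSP1, a phosphatase of MAP kinases, averaged 1007 ± 15.5 TPM and 331 ± 11 TPM. DUSP8, a related phosphatase, fell (45 against 106 TPM) and FOSB was not called (410.0 against 221 TPM). FOSB was called higher in the fit on the 5 compared libraries (limma adjusted p = 8.8e-04). The number called lower was 2 without papilla replicate 1 or 3 or without pulp replicate 2, and 1 without pulp replicate 1.

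Genes of cell division were lower in the resting papilla in 38 of 52 members, and higher in 2, with a median log2 fold change of -1.35. CDK1, the mitotic kinase, was at 1.86, 2.33 and 2.5 TPM in papilla, against 13.7 and 25.4 TPM in pulp (log2 fold change -2.61 ± 0.45 SE, limma adjusted p = 0.0013). TOP2A, topoisomerase II alpha, averaged 2.68 ± 1.02 TPM in the papilla and 16.4 ± 3.2 TPM in pulp, and CCNA2, cyclin A2, 1.73 ± 0.132 TPM and 11.9 ± 1.33 TPM. The summed level of the list was 431.84 to 490.73 TPM in the papilla libraries and 771.2 to 796.56 TPM in the late growth pulp libraries. Late growth pulp was itself low in these transcripts beside early growth pulp, which was at 2514.6 and 2912.8 TPM. PCNA, the replication clamp, and GINS1 were the members that rose (159 against 116 and 7.17 against 4.36 TPM), and the call of GINS1 was lost without pulp replicate 2 (adjusted p = 0.055). MCM6, a subunit of the replicative helicase, was not called (21.5 against 23.1 TPM).

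Inhibitors of the cell cycle were split, with 6 of 22 higher and 8 lower (27.3% and 36.4%, against 34.9% and 27.3% over all genes). CDKN1B, the inhibitor p27, was at 229, 293 and 266 TPM in the papilla libraries, against 155 and 166 TPM in the pulp libraries (log2 fold change 0.70 ± 0.14 SE, limma adjusted p = 0.0029), and TOB1, an antiproliferative factor, averaged 381 ± 9.52 TPM and 120.1 ± 2.94 TPM. CDKN2A and CDKN2B fell (0.515 against 3.44 and 0.0277 against 2.54 TPM). Apoptosis genes divided into 10 higher and 12 lower of 33 (30.3% and 36.4%, against the same shares over all genes). MCL1, which protects cells, averaged 905 against 375 TPM and FAS, a death receptor, 24.2 against 2.4 TPM, while the executioner caspase CASP6 averaged 9.66 against 39.8 TPM.

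**Figure D4:**
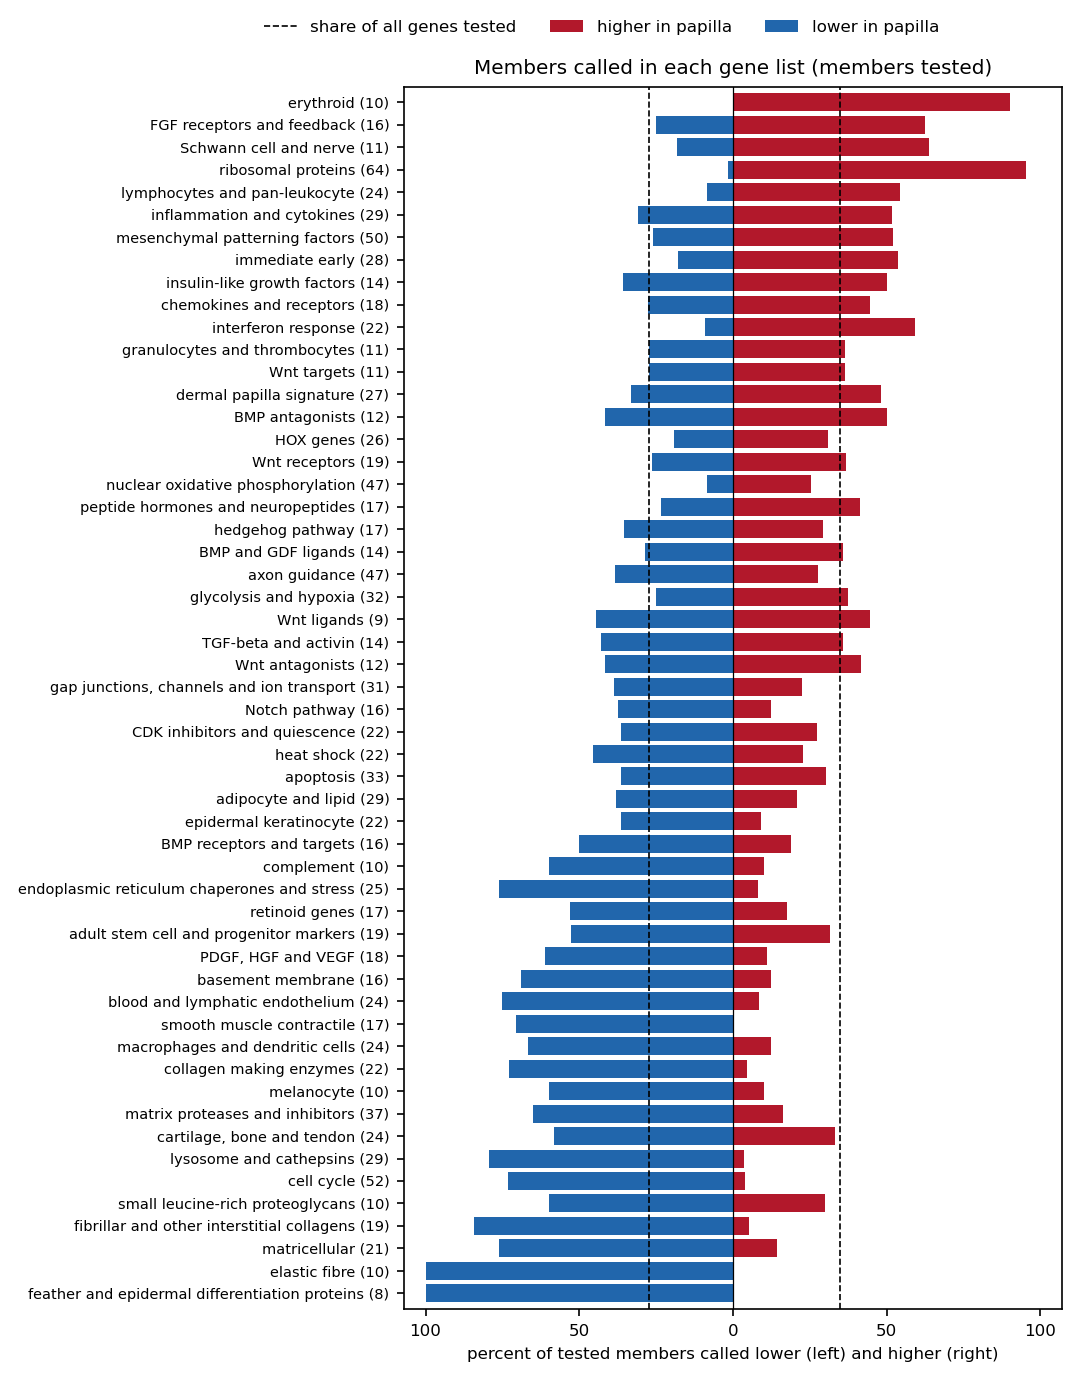
Percent of the tested members of each gene list called lower (blue, left) and higher (red, right) in the resting papilla than in late growth pulp, for lists with at least 8 tested members, ordered by median log2 fold change. Dashed lines mark the share of all 13883 genes called higher (34.9%) and lower (27.3%), and the number in brackets counts the tested members.

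Markers of other cell types moved between the tissues. Macrophage and dendritic cell genes were lower in the papilla in 16 of 24 and higher in 3, with summed levels of 2360.7 to 2399.3 TPM in the papilla libraries and 5245.9 to 5344.2 TPM in the pulp libraries. CSF1R, the receptor that defines macrophages, was at 78, 80.0 and 77.8 TPM in papilla, against 226 and 231 TPM in pulp (log2 fold change -1.53 ± 0.08 SE, limma adjusted p = 2.6e-06), and GPNMB, a glycoprotein of phagocytes and pigment cells, averaged 127 ± 9.48 TPM and 1639 ± 6.24 TPM. Lymphocyte and pan-leukocyte genes moved the other way, with 13 of 24 higher and 2 lower (1 when any 1 library was left out) and sums of 578.5 to 582.33 TPM in the papilla libraries and 486.29 to 486.7 TPM in the pulp libraries. CD3E, a chain of the T cell receptor complex, was at 50.03, 49.4 and 46.9 TPM in the papilla, against 12.2 and 15.2 TPM in pulp (log2 fold change 1.77 ± 0.14 SE, limma adjusted p = 2.0e-05). PTPRC, the leukocyte antigen CD45, averaged 23.3 ± 1.19 TPM in papilla and 7.24 ± 1.48 TPM in pulp, and IRF4 4.93 against 0.121 TPM. POU2AF1, like IRF4 and JCHAIN a gene of antibody-secreting cells, was at 1.21 TPM in the papilla on average and was listed at 0 in pulp. JCHAIN averaged 503 TPM in the papilla, and which cells it came from was not tested. LCP1, a pan-leukocyte actin bundler, was not called (47 against 47.3 TPM).

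Inflammatory genes rose in 15 of 29 and fell in 9 (51.7% and 31%, against 34.9% and 27.3% over all genes). Their summed level was nevertheless lower in the papilla libraries, at 1351.7 to 1378.3 TPM, against 1600.9 to 1635.9 TPM in the pulp libraries. TNFAIP3, an inhibitor of NF-kappaB, was at 47.1, 52.7 and 50.5 TPM in papilla libraries, against 1.26 and 3.92 TPM in pulp libraries (log2 fold change 3.94 ± 0.35 SE, limma adjusted p = 3.4e-05), and IL1B, interleukin 1 beta, at 18.1, 20.4 and 13.8 TPM, against 0 and 0.661 TPM. PTGS2, the inducible cyclooxygenase, fell to 2.16, 0.987 and 2.15 TPM in the papilla, against 23.6 and 41.6 TPM in pulp, so the enzyme and the receptor PTGER4 had opposite directions. Of 22 interferon response genes 13 were higher and 2 lower, with a median of 0.32: ZNFX1, an antiviral helicase, averaged 47.8 against 23.2 TPM and IRF8 86.1 against 48.2 TPM. With either pulp library left out, 7 interferon genes were called higher, and 8 with median-of-ratios scaling, and 1 was lower without pulp replicate 2. Of 18 genes of chemokines and their receptors 8 were higher and 5 lower (44.4% and 27.8%, against 34.9% and 27.3% over all genes). Among them CXCL14 was at 391, 271 and 338 TPM in papilla, against 3857 and 3970.2 TPM in pulp, and CYTL1, a chemokine-like cytokine, averaged 83 ± 6.13 TPM and 1621 ± 41.1 TPM. Both fell, while the weakly expressed IL8 rose (14.9 against 1.94 TPM).

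Red blood cell genes were higher in 9 of 10 members. HBA1, alpha globin, was at 1880.3, 3847 and 2610.4 TPM in the papilla libraries, against 556 and 554 TPM in the pulp libraries (log2 fold change 2.26 ± 0.36 SE, limma adjusted p = 9.4e-04), and HBBA, beta globin, at 703, 1462 and 1154 TPM, against 330.0 and 303 TPM. The sum over the list was 3233.2 to 6469.3 TPM in the papilla libraries and 1070.5 to 1110.1 TPM in the pulp libraries, with papilla replicate 2 the highest. Chicken erythrocytes keep their nuclei and circulate with RNA, and the part of blood in the lymphoid and inflammatory values was not tested. Without papilla replicate 2, the fit called 7770 genes, 4308 higher and 3462 lower.

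Vessel genes were lower. Of 24 endothelial genes 18 fell and 2 rose, and sums were 1021.9 to 1160.6 TPM in the papilla libraries and 1668.4 to 1669.4 TPM in the pulp libraries. CDH5, the cadherin of endothelial junctions, was at 43.2, 37.4 and 40.5 TPM in papilla, against 184 and 189 TPM in pulp (log2 fold change -2.18 ± 0.12 SE, limma adjusted p = 3.4e-06), and APLN, the peptide apelin of growing vessels, averaged 2.72 ± 0.324 TPM and 40.7 ± 6.89 TPM. TEK, the angiopoietin receptor, was not called (148 against 160.4 TPM). SOX18 and FLT1 were the ones called higher (403 against 164 and 44.4 against 36.8 TPM), a call that FLT1 lost when any 1 of the 5 libraries was left out (adjusted p 0.0586 to 0.16). Contractile genes of smooth muscle fell in 12 of 17, with none higher: ACTA2, smooth muscle actin, was at 30.6, 28 and 30.5 TPM in the papilla, against 219 and 220.4 TPM in pulp (log2 fold change -2.85 ± 0.16 SE, limma adjusted p = 3.7e-06), and TAGLN averaged 37.8 against 165 TPM, while MYL9 was not called (269.9 against 279 TPM). PDGFRB and RGS5, pericyte genes, averaged 157 against 128 TPM (not called) and 361 against 624 TPM (lower).

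Epidermal signal was present at a low level in both tissues. KRT5 and KRT14, keratins of basal epidermis, averaged 86.6 against 98.2 and 86.7 against 110.2 TPM and were not called. TP63, the master factor of basal keratinocytes, rose to 46.6, 48 and 47.3 TPM in papilla libraries, against 8.25 and 10.5 TPM in pulp libraries. SFN, the epithelial 14-3-3 protein, and the tight junction protein CLDN1 fell (16.9 against 51.3 and 0.865 against 20.4 TPM), and all 8 tested genes of feather keratins and the epidermal differentiation complex fell, such as EDYM2 (1.05 against 98.3 TPM). These belong to multigene families whose members can share reads, so single values are uncertain. The sum over the keratinocyte list was 337.81 to 483.04 TPM in the papilla libraries and 651.19 to 662.55 TPM in the pulp libraries, and the part of carried-over epidermis was not tested.

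Melanocyte genes were lower in 6 of 10. PMEL was at 0.124, 0 and 0 TPM in the papilla libraries, against 184 and 174 TPM in pulp, while SOX10, a factor shared by melanocytes and Schwann cells, averaged 19.7 ± 1.47 TPM in papilla and 3.98 ± 0.119 TPM in pulp and rose. Of 11 Schwann cell and nerve genes 7 were higher and 2 lower (63.6% and 18.2%, against 34.9% and 27.3% over all genes), or 1 lower without papilla replicate 2 or with either pulp library left out. CDH19, a cadherin of the neural crest lineage, averaged 24.4 against 9.5 TPM and rose, and PMP22, a myelin protein, averaged 135 against 178 TPM and fell. ASIP, the agouti signalling protein that opposes melanocortin, fell to 5.55, 1.96 and 6.36 TPM in papilla, against 56.5 and 45.7 TPM in pulp.

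Skeletal and lipid genes added further differences. In the list of cartilage, bone and tendon genes 14 of 24 were lower and 8 higher, or 5 higher after median-of-ratios scaling. The main counts are 58.3% and 33.3%, against 27.3% and 34.9% over all genes, so the share higher was close to that over all genes. DLX5, a homeobox factor of skeletal and dermal mesenchyme, was at 14.1, 20.6 and 17.8 TPM in the papilla, against 233 and 204 TPM in the pulp (log2 fold change -3.58 ± 0.28 SE, limma adjusted p = 1.8e-05), and TNMD, tenomodulin, averaged 1.67 against 27.4 TPM. BGLAP, osteocalcin, averaged 162 ± 20.8 TPM in papilla and 27.6 ± 3.48 TPM in pulp, and HAPLN1, a link protein of hyaluronan, 101 against 19.5 TPM, and both rose. Lipid genes rose in 6 of 29 and fell in 11 (20.7% and 37.9%, against 34.9% and 27.3% over all genes). ADIPOQ, adiponectin, averaged 431 against 251 TPM, whereas APOA1, an apolipoprotein, averaged 23 against 446 TPM and LPL, lipoprotein lipase, 78.9 against 259 TPM. Among progenitor markers MEIS1 rose (81.6 against 13.8 TPM) and CD24, CD34 and THY1 fell (18.9 against 332, 27.5 against 65.3 and 569 against 981 TPM). In that list 6 of 19 were higher and 10 lower (31.6% and 52.6%, against 34.9% and 27.3% over all genes).

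In energy metabolism 12 of 32 glycolytic and hypoxia genes were higher and 8 lower (37.5% and 25%), close to the shares over all genes (34.9% and 27.3%). PDK4, which closes the entry of pyruvate into the mitochondrion, was at 139.7, 112 and 126 TPM in papilla libraries, against 4.1 and 6.86 TPM in pulp libraries (log2 fold change 4.32 ± 0.27 SE, limma adjusted p = 6.4e-06). DDIT4, an inhibitor of mTORC1 induced by hypoxia and stress, averaged 856 ± 77.9 TPM in the papilla and 157 ± 7.06 TPM in pulp. LDHB, lactate dehydrogenase B, fell (399 against 953 TPM). Nuclear genes of oxidative phosphorylation were called higher in 12 of 47 and lower in 4 (25.5% and 8.51%). Both are under the shares over all genes, and 31 were not called. The balance became 10 and 11 with median-of-ratios scaling, 25 and 5 with quantile normalization, and 24 and 7 in a fit on the 5 compared libraries. Channels and gap junctions included GJA5, connexin 40, at 7.44 against 94.1 TPM, and the potassium channel subunit KCNE4 at 5.89 against 130.5 TPM, both lower in the papilla, and the mechanosensitive channel PIEZO2 at 6.73 against 1.73 TPM, which was higher.

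Some abundant genes with large differences in mean did not pass the test. Among genes with a symbol and at least 50 TPM, the 5 uncalled ones with the largest change were SNX21 (51.1, 58.8 and 53.6 TPM in papilla libraries, against 41.4 and 0 TPM in pulp libraries), MHCIY, LCLAT1, METTL21A and C14orf2. Their log2 fold changes were 3.09, 2.63, -1.51, 1.45 and -1.19. SNX21 passed without pulp replicate 1 (5.79, limma adjusted p = 6.1e-06). MHCIY and LCLAT1 passed without papilla replicate 1 (3.33 and -2.28) and without pulp replicate 2 (3.95 and -2.67). Among all uncalled genes, 523 (3.77% of those tested) had an unadjusted p under 0.05.

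Other pulp stages were compared in the same fit. Against the same papilla libraries, 8982 genes (64.7%) were called for near resting pulp, 6079 (43.8%) of them higher in the papilla, and 9118 (65.7%) for early growth pulp, with 4779 (34.4%) higher. These comparisons share the papilla libraries with the main one, so their values are only set side by side. Epidermal transcripts were far more abundant in near resting pulp, where the keratinocyte list summed to 26407 and 10213 TPM. That sum was 337.81 to 483.04 TPM in the papilla libraries and 651.19 to 662.55 TPM in late growth pulp. Genes of feather keratins and the epidermal differentiation complex summed to 8086.4 and 11163 TPM near rest. The part of epidermis in the near resting calls and values was not tested. WNT4 was at 10.1 and 12.1 TPM in early growth, 2.32 and 2.17 TPM in late growth and 69.6 and 39.6 TPM in near resting pulp, and 396, 484 and 416 TPM in the resting papilla. GABRA3 was at 85.7 and 90.0 TPM in early growth, 5.98 and 10.2 TPM in late growth and 178 and 199.6 TPM near rest, against which the papilla stood at 1056, 1010.0 and 1007 TPM. Both were lowest in late growth pulp and highest in the papilla.

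PENK did not follow that order: early growth pulp had 9924 and 9672 TPM, late growth 1416 and 1401 TPM and near resting pulp 56.9 and 186 TPM, so that early growth pulp and resting papilla were close (log2 fold change papilla over early growth 0.02, adjusted p = 0.97). FRZB was at 699.9 and 753 TPM in early growth, 50.4 and 50.04 TPM in late growth and 56.5 and 73.1 TPM near rest. SFRP4 was at 59.3 and 55 TPM in early growth, 2153 and 2124 TPM in late growth and 839.6 and 985 TPM near rest. Early growth pulp was therefore nearer to the resting papilla than late growth pulp was, for PENK, FRZB and SFRP4. CHRDL1, at 0.807 and 0.843 TPM in early growth and 44.3 and 137 TPM near rest, was low in early growth pulp as in the papilla, and SULF1 was at 0.0807 and 0.0514 TPM and 1.57 and 3.51 TPM in the same stages. FBN2 stayed high in all pulp stages, at 232 and 244 TPM in early growth and 135 and 113 TPM near rest.

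**Figure D5:**
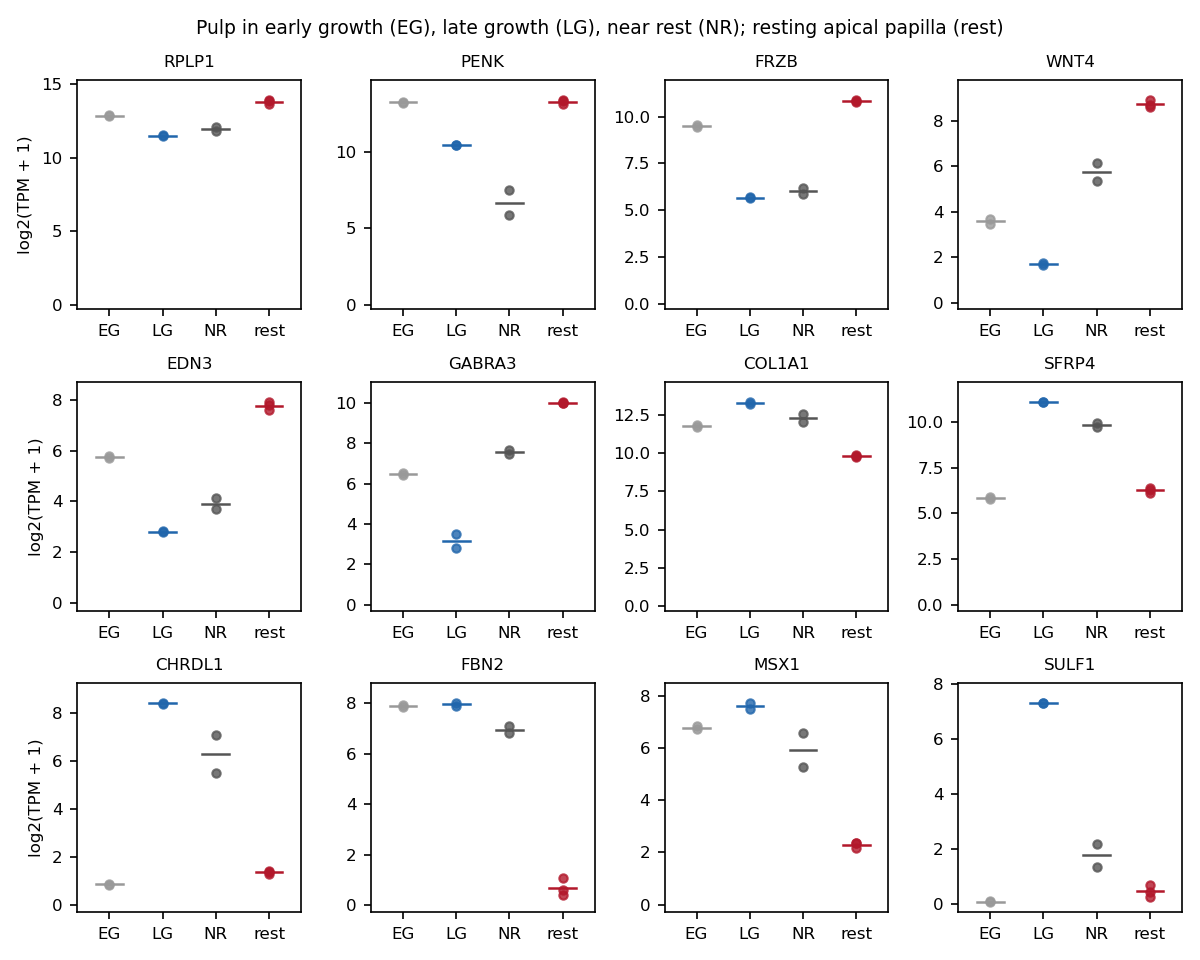
Level of 12 genes on a log2(TPM + 1) axis in pulp of early growth (EG), late growth (LG) and near rest (NR), 2 libraries each, and in the resting apical dermal papilla (3 libraries, red). Points are libraries and bars are group means, and SFRP4, CHRDL1 and SULF1 peak in late growth while PENK and FRZB are high in early growth and in the papilla.

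The series also compared the papilla with both pulp parts inside the early growth follicle, in other libraries and a table normalized separately. There limma called 8109 of 13804 genes (58.7%), 3298 higher (23.9%) and 4811 lower (34.9%) in the papilla than in the mean of peripheral and central pulp. Of 12963 genes tested in both, 1248 were higher in the resting papilla than in late growth pulp and also higher in early growth papilla than in early growth pulp, which is 28.1% of the first list and 40.0% of the second. A further 1652 were lower in both, 46.8% and 37.2% of those lists. Opposite calls numbered 1204 genes higher in the first comparison and lower in the second (27.1% of both lists) and 809 lower and then higher (22.9% and 25.9%). Over all genes of the second comparison 23.9% were higher. Of the first lists, the 28.1% higher in both lies above that share and the opposite 22.9% slightly below it. Beside the 34.9% that were lower there, the 46.8% lower in both lies above and the opposite 27.1% below. For the second lists the shares over all genes of the first comparison are 34.9% higher and 27.3% lower. The 40.0% and 37.2% of shared direction lie above these, and the opposite 27.1% and 25.9% below. These shares are over all genes of each comparison, not only the 12963 tested in both. These differences were not tested. CHRDL1 was an example of opposite calls. It was at 145, 159 and 199 TPM in early growth papilla, against 2.05, 1.89 and 3.13 TPM in peripheral and 0.121, 0 and 0 TPM in central pulp. ALX4 was higher in the papilla in both experiments, averaging 139 TPM in early growth papilla, 66.1 TPM in peripheral and 65.8 TPM in central pulp (log2 fold change 1.08, limma adjusted p = 5.2e-04).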

How the data were processed

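RNA-seq of 9 libraries was used: 3 of resting apical dermal papilla and 2 each of early growth, late growth and near resting pulp, with 12 libraries of the early growth follicle for a side comparison. The authors deposited TPM per gene. TPM is scaled to one total per library, so more of an abundant transcript means less of the rest. The deposited values summed to 995662.5, 991606.6 and 994814.2 in the papilla libraries and 998492.7 and 998393.3 in the late growth pulp libraries. Per the submitters' processing notes, Cuffdiff 2.2.1.3, Cufflinks 2.2.1.2 and TopHat2 2.1.1 were among the tools, with no role stated. Build, annotation and strand setting were not given in the sources used here. Coordinates and sequences are therefore left out, and genes that overlap or have near-identical copies are uncertain.

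Genes with at least 1 TPM in at least 2 of the 5 compared libraries were tested on log2(TPM + 1), with a pseudocount of 1 TPM, by limma 3.58.1 in R 4.3.3 (trend and robust, group means over 9 libraries, 5 residual degrees of freedom, two-sided). P-values were Benjamini-Hochberg adjusted over all 13883 genes and called under 0.05. The filter kept 888 genes that reached 1 TPM in exactly 2 libraries (median of the mean 1.16 TPM) and left out 643 that did so in exactly 1 (0.542 TPM). Of the names, 3438 were Ensembl identifiers, which were counted but not described. Run on simulated data in which 200 genes were changed, the same fit over the 13883 genes of this comparison called 73% of those changed 2-fold and 93% of those changed 4-fold, and 6.74% of all its calls fell on other genes. Far fewer genes were changed there than the 8635 called here, so these percentages may not hold for this comparison. Lists were described by counts and medians, and no set test was run. The members, the lists and the comparison were chosen with earlier results of these data known. Genes with a symbol were named by rule: the 15 largest changes in each direction with at least 10 TPM in the higher group and no overlap, up to 4 called members with the smallest p and the most abundant uncalled member of each list, the 10 most abundant genes of each group, and the 5 uncalled genes of at least 50 TPM with the largest change. A few genes taken by this rule are not reported here. Other list members were named after their values were seen. Replicate numbers of papilla and pulp were not used as pairs in the main fit. Alternatives tried are given at the end.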

Additional observations from a re-analysis of the deposited data

Results flagged for a closer look

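Of the 30 genes with a symbol of largest change, 24 had values in the table of the early growth follicle, and 8 of them (33.3%) had the opposite direction there, with no overlap between libraries in either table. Over all 10558 genes with values in both tables and no overlap between resting papilla and late growth pulp, 2187 (20.7%) did so, so the 8 are values and no result about these genes as a set. The difference between the experiments was not tested, because the tables were normalized separately and stage and tissue part differ. GABRA3 was higher in the resting papilla than in late growth pulp (log2 6.86) but averaged 54.7 TPM in early growth papilla, against 81.5 and 126 TPM in peripheral and central pulp. JCHAIN (6.68) averaged 3.46 TPM in early growth papilla and 71.1 and 62.4 TPM in those pulp parts, and CYP1C1 (6.29) 23.7, 67.1 and 115 TPM. The other 5 were lower in the resting papilla than in late growth pulp and higher in early growth papilla than in early growth pulp. CHRDL1 (-7.05) averaged 168 TPM in early growth papilla, against 2.35 and 0.0402 TPM in peripheral and central pulp, and MGP (-6.29) 824, 5.72 and 55.3 TPM. SULF1 (-6.83) averaged 44.5, 0.0274 and 0.0905 TPM, SPON2 (-7.34) 625, 207 and 172 TPM, and FABP3 (-7.46) 21.2, 6.15 and 9.07 TPM in the same order.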

How the results depend on the processing

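The comparison was refitted under 14 other settings, and no gene called in one direction was called in the other under any of them. With at least a 2-fold change required, 4244 genes were called, 2256 higher and 1988 lower. When each library was left out in turn, 7040 to 7846 genes were called, 3833 to 4332 higher and 3121 to 3514 lower, against 8635, 4848 and 3787 with all libraries. Without one pulp library, the other is assumed to vary like the other groups. With the replicate number as a block, 7303 genes were called, 4018 higher and 3285 lower. Only 2 numbers are shared, and deviations of libraries of the same number from their group means had correlations of -0.0453 and -0.0307. With 2 pulp libraries, the deviations of one mirror those of the other. These values therefore cannot show if a shared number stands for a shared bird or batch, which the labels do not state. Median-of-ratios scaling gave 8729 calls, 4374 higher and 4355 lower, so 50.1% of calls were higher in place of 56.1%. Quantile normalization gave 4753 higher and 4074 lower, and a fit on the 5 compared libraries alone 5561 higher and 4325 lower. A pseudocount of 0.1 gave 8444 calls, no filter 8931, a filter at 5 TPM 7467, a filter over all 9 libraries 8690 and a variance without trend or robust weights 8503. The 30 genes with a symbol of largest change were called in the same direction under all 14 settings. They were chosen as the largest called changes without overlap, so this says little about other genes. Among all named genes and settings, 51 calls were lost and 18 gained. The fit on the 5 compared libraries gave 10 of the gains: GDF7, FOSB, COL17A1, FGF7, APCDD1, PDGFRB, CCND1, VIM, METTL21A and MHCIY. Some genes that were not called changed sign. With quantile normalization the log2 fold changes were 0.14 for APCDD1, 0.11 for ID3, 0.18 for MYL9 and 0.036 for TEK. Leaving out 1 library gave -0.17 to 0.0070 for ID3 (above 0 without papilla replicate 1), -0.086 to 0.068 for LCP1 (above 0 without papilla replicate 2 or pulp replicate 2), and, each crossing 0 without pulp replicate 1, -0.12 to 0.019 for MYL9, -0.034 to 0.43 for PTCH1 and -0.11 to 0.0090 for UBB. The cause was not tested. Across all lists and settings, 103 counts of members moved by over 1.5 times and 1549 did not. BMP ligands called lower numbered 7 in the fit on 5 libraries. With a filter at 5 TPM only 8 chemokine genes were tested and 3 called higher, beside 8 of 18 in the main fit. The depth is unknown, so its limit on weak transcripts cannot be given.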

Other observations

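Some of the most different genes had only an Ensembl identifier, which the tables used here do not pair with a symbol, so their identity is not given. ENSGALG00000049450 was at 3479, 3574 and 3461 TPM in the papilla libraries, against 4.15 and 3.87 TPM in the pulp libraries. ENSGALG00000055004 was at 0, 0.481 and 0 TPM in papilla, against 3436 and 3301 TPM in pulp, and ENSGALG00000050836 at 0.144, 0.212 and 0.568 TPM, against 2828 and 2768 TPM. In near resting pulp ENSGALG00000049450 was at 429 and 417 TPM, ENSGALG00000055004 at 219 and 93.4 TPM and ENSGALG00000050836 at 222 and 76.8 TPM. The 13 protein genes of the mitochondrial genome were listed at 0 in every library, so their level cannot be read from this table.

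Smaller lists gave further values. AvBD5, a beta-defensin, fell to 0, 0 and 0.898 TPM in the papilla libraries, against 14.4 and 16.8 TPM in the pulp libraries, while S100A9, a calcium-binding protein of granulocytes, was at 19.8, 44.5 and 35.8 TPM in papilla and 0 and 0.0451 TPM in pulp. F13A1, a coagulation factor chain of thrombocytes and macrophages, averaged 0.544 against 81.9 TPM and MARCO, a scavenger receptor, 6.45 against 86.1 TPM, both lower in the papilla. In the list of granulocyte and thrombocyte genes 4 of 11 were higher and 3 lower. These shares, 36.4% and 27.3%, were close to the 34.9% and 27.3% over all genes. GP1BB and ITGB3 of that list were higher (17.2 against 6.97 and 149 against 74.3 TPM). MASP1, a protease of the lectin pathway of complement, averaged 390.3 ± 3.72 TPM in the papilla and 132 ± 3.85 TPM in pulp, and rose where C1S fell (150.3 against 495 TPM). Defensins belong to a multigene family whose members can share reads.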
